A study of Mus musculus with 10 samples.

Results

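Kinesins and genes of spindle assembly were examined in RNA sequencing libraries of mouse liver and of liver tumors. Members were chosen by symbol: all 40 entries whose symbol starts with Kif followed by a digit or c, and 7 named spindle genes (Tpx2, Hmmr, Racgap1, Prc1, Aurka, Ect2 and Anln). They amount to 47 of the 16697 genes with a symbol and values. By their textbook role, 13 of the Kif entries are mitotic kinesins, 17 are transport kinesins and 9 are other kinesins. The remaining entry, Kif1bp, encodes a protein that binds kinesins and is not a motor. Kif2b, Kif6, Kif19b, Kif25 and Kif28 were looked for and have no row with values here.

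The groups were normal liver (NL, n = 4), tumors raised with a c-MYC plasmid and the empty pT3 vector (c-MYC, n = 3), and tumors raised with c-MYC and FOXO1AAA (c-MYC/FOXO1AAA, n = 3). Plasmids were delivered to hepatocytes through hydrodynamic injection into the tail vein, a rapid large-volume injection that reaches the liver, and a Sleeping Beauty transposase inserts them into the genome. FOXO1AAA is a form of the transcription factor FOXO1 that AKT can no longer phosphorylate and that stays active. It is driven by the EF1α promoter, so its level is not under the control of the Foxo1 gene. The labels give the genotype as WT and the strain as C57BL/6 in all 3 groups, but the extraction protocol in the same labels and the methods of the study give FVB mice. The sources used here also differ on whether the tumors carried MCL1 beside c-MYC. Age is not given in the sources used here. Animals of both sexes were used in the study, without a sex for each library. The methods give the numbers of the tumor groups as injected mice, and the labels do not tie a library to a mouse.

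Kinesins are motor proteins that burn ATP to walk along microtubules or to take them apart. Transport kinesins carry vesicles, organelles and the building blocks of cilia, and cells use them whether or not they divide. Mitotic kinesins build the spindle, line up the chromosomes and split the cell, and their messenger RNA is made mostly in late S phase, G2 and mitosis. Adult hepatocytes are mostly quiescent, and hepatocytes that do enter the cycle often skip cytokinesis and become polyploid.

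The reads in listed genes, in units of mega (M), ran from 13.12 to 20.55 M per library. Values are FPKM, fragments scaled by transcript length and library size, which the authors had deposited as log2 values with a prior count of 2 already added. The library sizes had been rescaled by the authors by a factor of 0.649 to 0.684 in NL, 1.256 to 1.295 in c-MYC and 1.454 to 1.502 in c-MYC/FOXO1AAA. Replicates always differed by more than counting noise (chi-square per degree of freedom of recovered reads, 8.7 to 31.6). Means are given ± SD over the 4 NL libraries or the 3 libraries of a tumor group, and log2 fold changes ± SE. A gene was tested where at least 3 libraries reached 1 FPKM, which held for 14017 genes and for 38 of the 47 members. A gene was called where limma's treat test against a 1.5-fold change gave an adjusted p under 0.05. The members that did not reach this level were Kif5a, Kif5c, Kif9, Kif17, Kif19a, Kif24, Kif26a, Kif26b and Kif27. In bulk tissue, fewer cells of a type and less RNA per cell cannot be told apart. The labeled tissue was checked with 5 hepatocyte genes (Alb, Ttr, Apoa1, Tat and Cyp2e1), whose summed level was 79287 to 89216 FPKM in NL, 3052 to 4865 FPKM in c-MYC and 853 to 1532 FPKM in c-MYC/FOXO1AAA. All 5 were called lower in c-MYC than in NL, where 23.6% of all genes tested were. Between c-MYC and c-MYC/FOXO1AAA, 2 were called higher and 2 lower, beside 15.9% and 12.7% of all genes tested. The further fall of the sum thus does not hold for each of these genes.

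Levels of different members can be compared only with the length in mind that the authors had divided by. Whole reads could be recovered for every gene together with that length. For 12 of the 47 members the length was under 50 percent of the longest annotated transcript of the gene. Kif22 had been scaled by 518 bases where its longest transcript has 3586, Hmmr by 547 of 3892, Kif4 by 694 of 4983, Kif21b by 701 of 9254 and Kif3a by 720 of 3161. If their reads came from the whole gene, such members stand too high beside others in FPKM. Fold changes within a gene do not depend on the length.

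**Figure D1:**
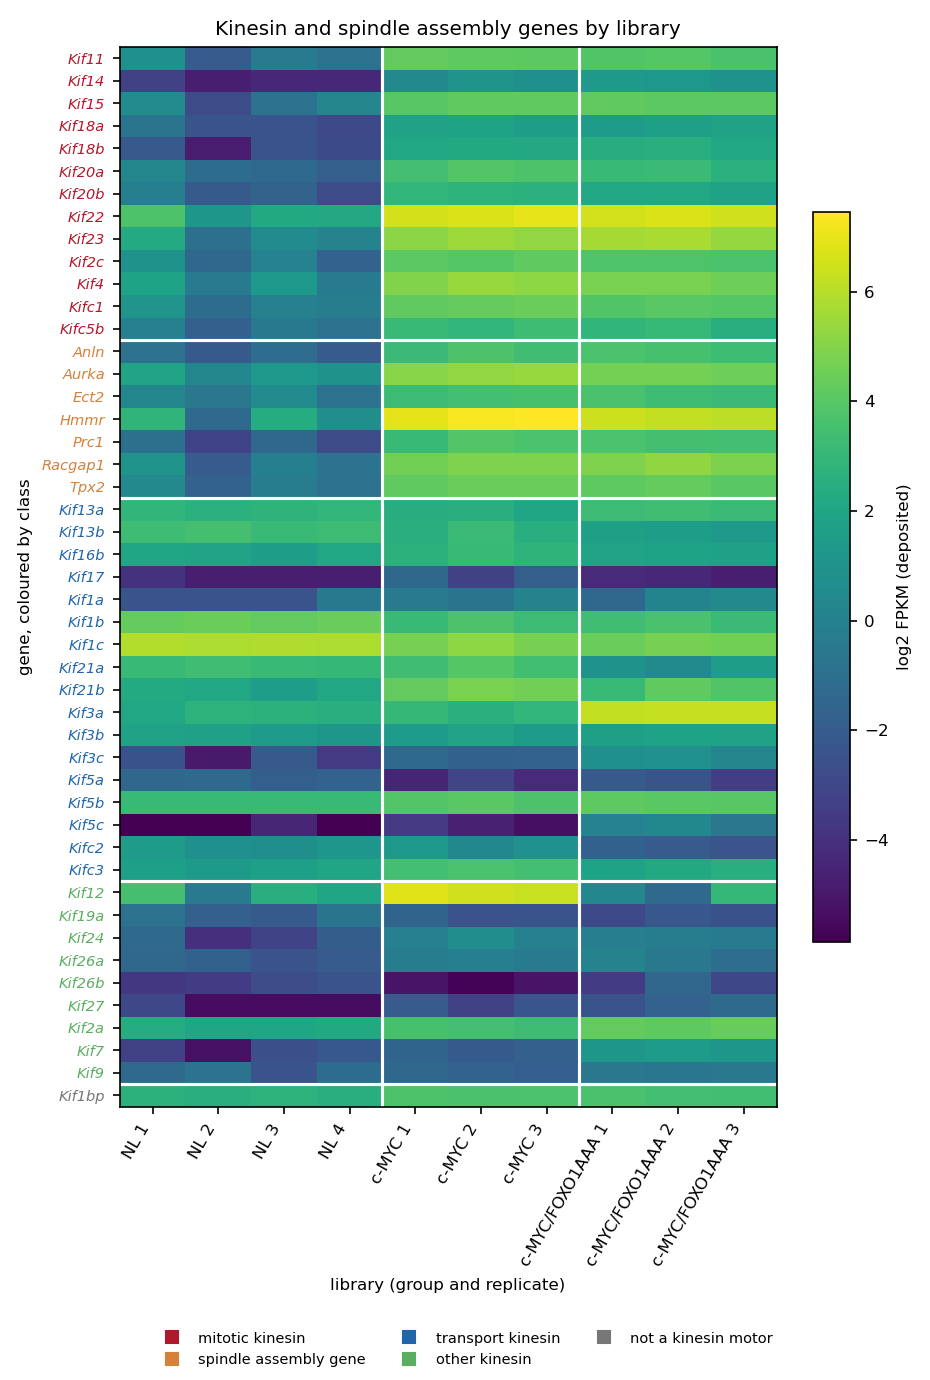
Deposited log2 FPKM of the 47 members (vertical axis, colored by class) in the 10 libraries (horizontal axis). The 13 mitotic kinesins and 7 spindle genes step up together from NL to both tumor groups, whereas most transport kinesins hold a similar color across the groups and Kif3a stands out in the 3 c-MYC/FOXO1AAA libraries.

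Mitotic kinesins and spindle genes were higher in c-MYC tumors than in NL without exception. All 13 mitotic kinesins and all 7 spindle genes passed the test, where 24.5% of all genes tested were called higher and 48.1% in either direction. Their libraries did not overlap between the groups in any of the 20 genes, and 39% of all genes tested were higher without overlap and 34.9% lower. The median log2 fold change was 4.58 over the mitotic kinesins (3.88 for Kif18a to 5.20 for Kif18b) and 4.98 over the spindle genes (3.58 for Ect2 to 6.06 for Hmmr), beside 0.0833 over all genes tested. The count of 7 spindle genes was the same under each of the 22 other ways of processing. The count of 13 was the same under 21 of them, and was 9 of 9 where genes averaging under 5 FPKM were left out, since Kif14, Kif18a, Kif18b and Kif20b were then not tested.

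The motors that make the spindle bipolar and focus its poles were nearly silent in NL. Kif11, which slides antiparallel microtubules apart (chromosome 19, 37376403 to 37421859, plus strand, GRCm38), stood at 1.75, 0.245, 0.747 and 0.533 FPKM in NL 1 to NL 4. It rose to 19.2, 18.0 and 17.3 FPKM in c-MYC and stood at 14.4, 15.7 and 12.5 FPKM in c-MYC/FOXO1AAA. Its log2 fold change from NL to c-MYC was 4.82 ± 0.51 (limma adjusted p = 2.48e-05). Kif15, which can stand in for Kif11, held 1.48, 0.145, 0.540 and 1.16 FPKM in NL, 16.1, 18.3 and 18.5 FPKM in c-MYC, and 18.3, 17.4 and 17.0 FPKM in c-MYC/FOXO1AAA. Every tumor library was thus above every NL library for both motors. Kifc1, a minus-end motor that gathers the poles, held 2.12, 0.455, 0.963 and 0.854 FPKM in NL, 18.7, 19.6 and 21.7 FPKM in c-MYC, and 14.2, 16.4 and 15.2 FPKM in c-MYC/FOXO1AAA. Kifc5b is a near-identical copy of Kifc1 on the same chromosome 17, and the split of reads between them is uncertain. It held 0.976, 0.287, 0.708 and 0.554 FPKM in NL, 8.94, 7.86 and 10.1 FPKM in c-MYC, and 7.55, 8.29 and 5.83 FPKM in c-MYC/FOXO1AAA.

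The motors that move and align chromosomes followed the same order. Kif2c, which takes microtubules apart at the centromere, held 1.99, 0.378, 1.05 and 0.316 FPKM in NL, 17.3, 15.2 and 18.3 FPKM in c-MYC, and 13.7, 14.0 and 12.7 FPKM in c-MYC/FOXO1AAA. Kif18a, which damps the swings of aligned chromosomes, held 0.5995, 0.193, 0.187 and 0.134 FPKM in NL, 3.54, 3.66 and 3.09 FPKM in c-MYC, and 2.77, 3.11 and 3.47 FPKM in c-MYC/FOXO1AAA. Kif18b, which works on astral microtubules, held 0.226, 0.0356, 0.190 and 0.136 FPKM in NL, 4.15, 4.62 and 4.46 FPKM in c-MYC, and 5.36, 5.87 and 4.24 FPKM in c-MYC/FOXO1AAA. These NL values rest on 7, 0, 5 and 3 reads of Kif18b, so that its log2 fold change of 5.20 ± 0.53 (limma adjusted p = 1.58e-05) understates the change on a scale with a prior count. The chromokinesins Kif4 and Kif22 bind chromosome arms. Kif4 held 3.69, 0.782, 2.38 and 0.813 FPKM in NL, 30.1, 41.9 and 37.3 FPKM in c-MYC, and 27.7, 27.5 and 22.6 FPKM in c-MYC/FOXO1AAA. Kif22 held 13.5, 2.28, 4.78 and 4.53 FPKM in NL, 95.8, 105 and 125 FPKM in c-MYC, and 95.2, 105 and 90.0 FPKM in c-MYC/FOXO1AAA. Kif22 was the highest of the mitotic kinesins by FPKM, but on the length of its longest transcript its c-MYC mean was 15.7 FPKM, below the 18.2 FPKM of Kif11 and the 19.97 FPKM of Kifc1.

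The motors of the midzone and of cytokinesis complete the class. Kif23, the motor of centralspindlin, held 4.91, 0.523, 1.48 and 1.07 FPKM in NL, 35.2, 45.5 and 40.0 FPKM in c-MYC, and 50.1, 53.6 and 40.7 FPKM in c-MYC/FOXO1AAA. Kif20a, which carries the chromosomal passenger complex to the midzone, held 1.18, 0.450, 0.406 and 0.283 FPKM in NL, 11.1, 14.9 and 13.5 FPKM in c-MYC, and 8.68, 9.21 and 6.32 FPKM in c-MYC/FOXO1AAA. All 3 c-MYC/FOXO1AAA libraries lay below the c-MYC libraries for Kif20a but not for Kif23. Kif20b held 0.940, 0.237, 0.324 and 0.145 FPKM in NL, 7.78, 6.80 and 6.21 FPKM in c-MYC, and 4.14, 4.20 and 3.58 FPKM in c-MYC/FOXO1AAA. Kif14, which recruits citron kinase to the midbody, was the lowest of the class with 0.104, 0.0370, 0.0476 and 0.0506 FPKM in NL, 1.32, 2.04 and 1.803 FPKM in c-MYC, and 2.43, 2.41 and 1.91 FPKM in c-MYC/FOXO1AAA.

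The 7 spindle genes that are not motors rose as well. Hmmr, which anchors microtubules at the poles (chromosome 11, 40701395 to 40733422, minus strand), held 7.33, 0.410, 5.27 and 1.64 FPKM in NL, 122, 161 and 176 FPKM in c-MYC, and 85.8, 75.2 and 69.7 FPKM in c-MYC/FOXO1AAA. Tpx2, which activates Aurka and seeds microtubules near chromatin, held 1.31, 0.309, 0.841 and 0.537 FPKM in NL, 18.3, 21.5 and 21.4 FPKM in c-MYC, and 17.8, 20.02 and 16.5 FPKM in c-MYC/FOXO1AAA. Aurka, the kinase of the centrosome and spindle pole, held 3.77, 1.18, 2.37 and 1.88 FPKM in NL, 33.8, 39.8 and 43.0 FPKM in c-MYC, and 25.7, 25.5 and 22.8 FPKM in c-MYC/FOXO1AAA. For Hmmr and Aurka, every c-MYC/FOXO1AAA library was below every c-MYC library. Prc1, which bundles antiparallel microtubules in the midzone, held 0.518, 0.109, 0.378 and 0.150 FPKM in NL, 8.74, 14.7 and 13.1 FPKM in c-MYC, and 12.8, 11.4 and 11.2 FPKM in c-MYC/FOXO1AAA. Racgap1, the partner of Kif23 in centralspindlin, held 2.05, 0.257, 0.913 and 0.572 FPKM in NL, 24.8, 29.0 and 30.0 FPKM in c-MYC, and 30.0, 37.5 and 28.1 FPKM in c-MYC/FOXO1AAA. These libraries overlapped between the tumor groups for both genes. Ect2, the exchange factor that centralspindlin activates to switch on RhoA, held 1.21, 0.669, 1.495 and 0.561 FPKM in NL, 9.57, 10.98 and 12.2 FPKM in c-MYC, and 12.2, 10.2 and 9.36 FPKM in c-MYC/FOXO1AAA. Anln, a scaffold of the contractile ring, held 0.537, 0.233, 0.470 and 0.243 FPKM in NL, 9.22, 13.6 and 10.4 FPKM in c-MYC, and 12.8, 11.9 and 9.97 FPKM in c-MYC/FOXO1AAA.

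**Figure D2:**
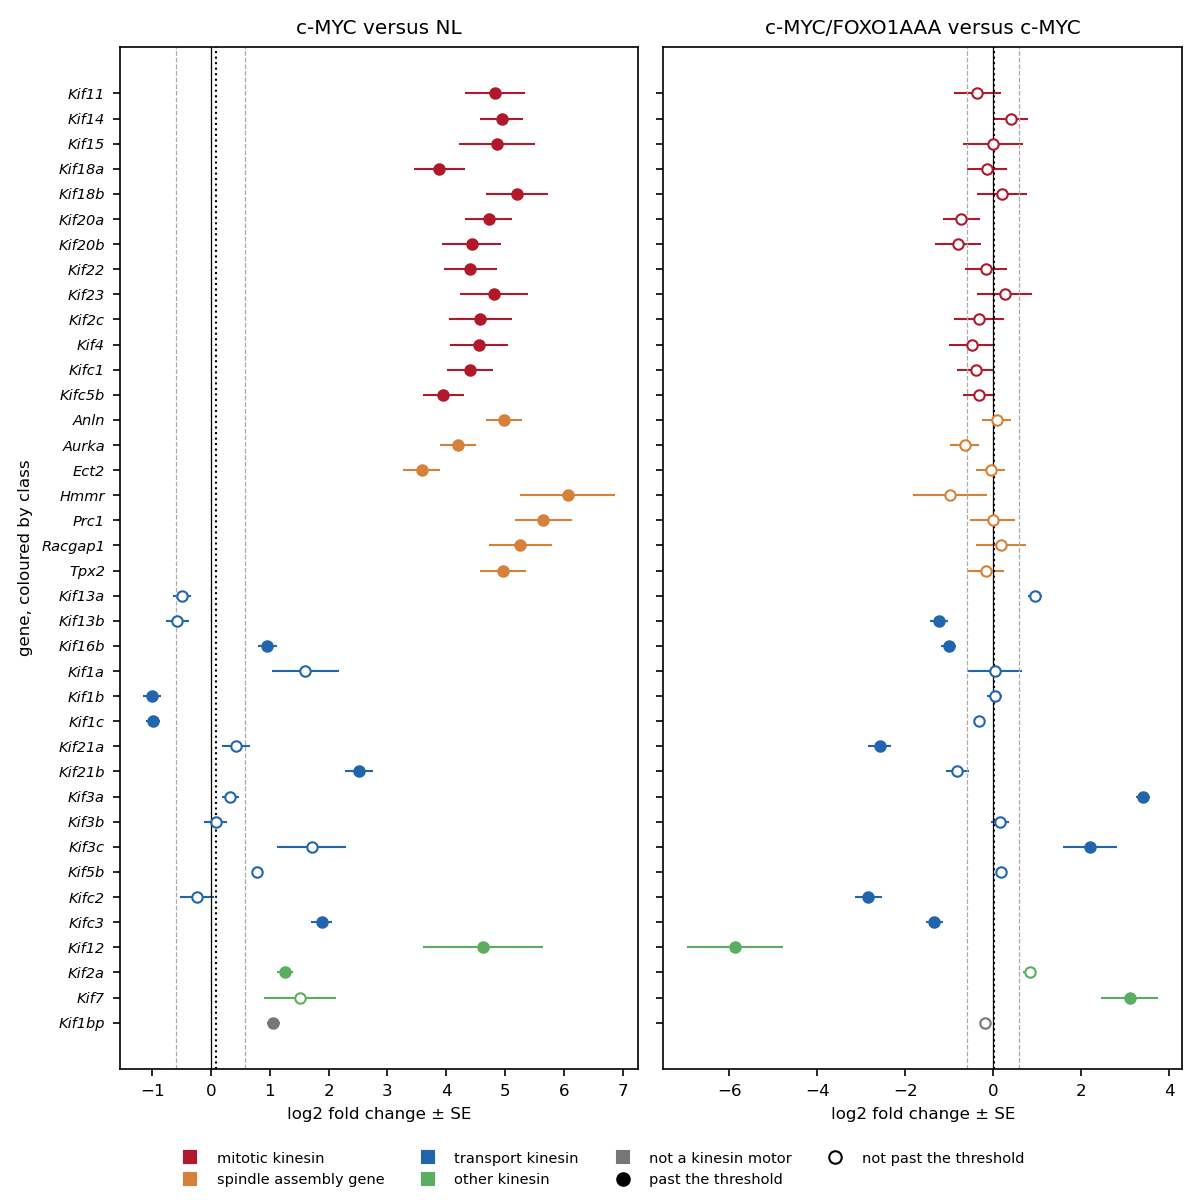
Log2 fold change ± SE (horizontal axis) of the 38 members tested (vertical axis), for c-MYC versus NL on the left and c-MYC/FOXO1AAA versus c-MYC on the right, with filled points past the threshold. Dashed lines mark a 1.5-fold change and the dotted line the median of all genes tested (0.0833 and 0.0260). Mitotic kinesins and spindle genes sit between 3.58 and 6.06 on the left and between -0.98 and 0.40 on the right, whereas transport kinesins run from -1.0 to 2.52 and from -2.84 to 3.40.

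Transport kinesins went both ways between NL and c-MYC. Of the 17, 14 were tested. Of these, 3 were called higher and 2 lower, where 24.5% of all genes tested were called higher and 23.6% lower. Neither count was thus above the share of all genes. Their median log2 fold change was 0.38. Kif21b, a motor that pauses microtubule growth in neurons and lymphocytes, held 4.95, 4.25, 3.09 and 4.30 FPKM in NL and 19.1, 27.2 and 24.6 FPKM in c-MYC (log2 fold change 2.52 ± 0.24, limma adjusted p = 2.78e-05). Kifc3, a minus-end motor of epithelial junctions, held 3.13, 2.66, 3.16 and 3.88 FPKM in NL and 11.1, 12.8 and 11.2 FPKM in c-MYC (1.88 ± 0.18, limma adjusted p = 4.81e-05). For both, the groups did not overlap. Kif16b, which carries endosomes, passed narrowly (0.96 ± 0.16, limma adjusted p = 0.0366) and lost the call under 9 of the 22 alternatives, with the highest adjusted p of 1 at a threshold of 2-fold, and also without NL 2, NL 3, c-MYC 2 or c-MYC 3.

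The transport kinesins with the highest FPKM in normal liver were the ones called lower. Kif1c, which moves vesicles and integrins, held 60.03, 56.9, 58.3 and 57.5 FPKM in NL and 26.6, 36.2 and 26.8 FPKM in c-MYC (log2 fold change -0.98 ± 0.12, limma adjusted p = 0.0101). Kif1b, which carries mitochondria and vesicle precursors, held 20, 22.4, 19.1 and 21.4 FPKM in NL and 8.70, 13.4 and 9.53 FPKM in c-MYC (-1.0 ± 0.15, limma adjusted p = 0.0247). Their groups did not overlap, but both changes were relative to the library sizes of the authors. Rescaled to the same FPKM total per library, which moved the median of all genes from 0.083 to 1.011 and the share of higher among called genes from 51% to 78.8%, Kif1c stood at -0.05 and Kif1b at -0.07. The call of Kif1b was also lost without NL 2 (adjusted p = 0.0558), NL 4 (0.0515), c-MYC 1 (0.106) or c-MYC 3 (0.0811). Kif5b, the ubiquitous heavy chain of conventional kinesin, rose from 8.65 ± 0.150 FPKM to 14.98 ± 1.70 FPKM without overlap but did not pass the 1.5-fold test (0.79 ± 0.10, limma adjusted p = 0.0742). The other tested transport kinesins that did not pass were Kif1a, Kif3a, Kif3b, Kif3c, Kif13a, Kif13b, Kif21a and Kifc2, with c-MYC means from 0.339 FPKM (Kif3c) to 12.2 FPKM (Kif21a).

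Among the other kinesins, 3 of 9 were tested. Kif12, a motor of kidney and bile duct epithelium whose loss causes cholestasis in people (chromosome 4, 63165630 to 63172131, minus strand), held 11.4, 0.758, 5.88 and 4.04 FPKM in NL and 114, 90.7 and 80.2 FPKM in c-MYC. Its log2 fold change of 4.63 ± 1.02 (limma adjusted p = 0.00407) was as large as that of the mitotic kinesins, although it has no described role in the spindle. Kif2a, which takes microtubules apart at the poles and in neurites, held 5.21, 4.10, 4.06 and 4.74 FPKM in NL and 11.9, 11.03 and 9.50 FPKM in c-MYC (1.26 ± 0.13, limma adjusted p = 0.000537). Kif1bp, which keeps some kinesins off microtubules, went from 6.18 ± 0.534 FPKM to 12.9 ± 0.655 FPKM and was called (1.06 ± 0.11 on the log2 scale, limma adjusted p = 0.00163). Among the members too low to be tested, Kif24 went from 0.214 ± 0.165 FPKM to 1.17 ± 0.364 FPKM and Kif26a from 0.282 ± 0.0927 FPKM to 0.846 ± 0.0760 FPKM. Both were higher without overlap, as were 39% of all genes tested. In a fit without the filter, Kif24 (2.78 ± 0.58, limma adjusted p = 0.00446) and Kif26a (1.64 ± 0.36, 0.0181) were called higher. Kif17 and Kif27 were also called higher in that fit, Kif5a and Kif26b lower, and Kif5c, Kif9 and Kif19a were not called. Of all 16697 genes, 3765 were called higher and 3718 lower there.

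Set against each other within a library, mitotic and transport kinesins changed places. The median log2 FPKM of the 13 mitotic kinesins minus that of the 17 transport kinesins was -1.45, -3.71, -2.13 and -2.98 in NL 1 to NL 4. It was 1.496, 1.308 and 1.633 in c-MYC and 2.05, 1.95 and 1.86 in c-MYC/FOXO1AAA. Each library is its own control in this difference, which no scaling of the library can move. Mitotic kinesins made up 9.26% ± 5.86 of the summed kinesin FPKM in NL, 54.7% ± 3.84 in c-MYC and 56.5% ± 2.72 in c-MYC/FOXO1AAA. On the longest annotated lengths, these shares were 4.93%, 48.2% and 49.3%. The summed level of the transport kinesins was 137 ± 3.53 FPKM in NL and 136 ± 19.1 FPKM in c-MYC. Of these sums, Kif1c alone held 58.2 and 29.8 FPKM. Unlike the difference within a library, the sums depend on the library sizes of the authors. With the same FPKM total per library, 9 transport kinesins were called higher in c-MYC than in NL and 0 lower. At that scaling, 78.8% of all called genes were higher.

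The NL libraries differed among themselves far more in mitotic than in transport kinesins. The SD of log2 FPKM had a median of 1.12 in NL against 0.16 in c-MYC and 0.16 in c-MYC/FOXO1AAA over the mitotic kinesins, and of 0.26, 0.27 and 0.23 over the transport kinesins. NL 1 was the highest NL library for 13 of 13 mitotic kinesins and 6 of 7 spindle genes, Ect2 being the exception. NL 2 was the lowest for 9 and 6 of them. As a share of the c-MYC mean, the median mitotic kinesin stood at 10.6% in NL 1, 2.15% in NL 2, 4.41% in NL 3 and 2.95% in NL 4. Kif12 ran in the same order, at 12.0%, 0.798%, 6.19% and 4.25%. NL 4 was the shallowest library with 13.12 M reads against 17.03 M in NL 1, and the part of depth in these differences was not tested. The summed level of 8 proliferation genes ranged from 6.77 to 35.2 FPKM over the NL libraries and from 403 to 476 FPKM in c-MYC.

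**Figure D3:**
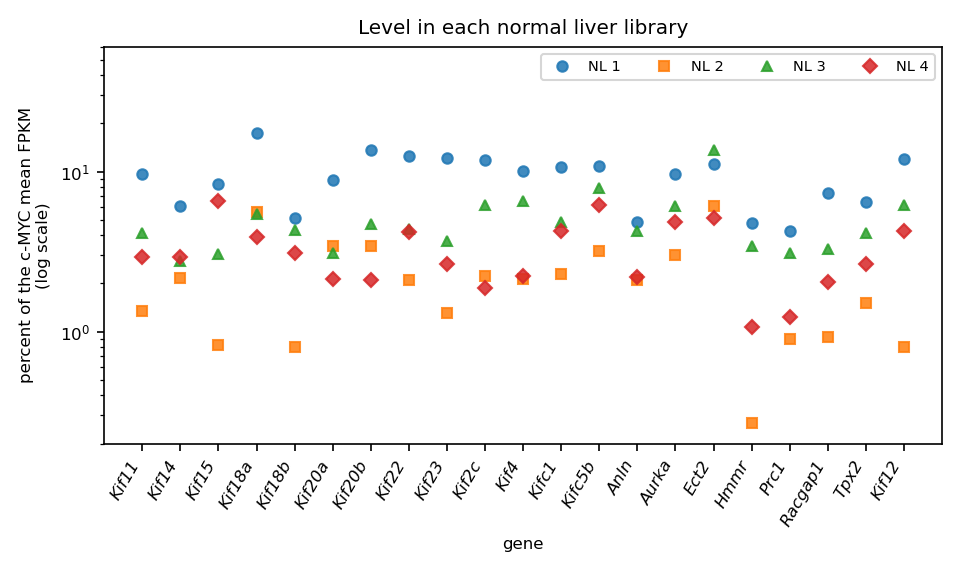
Level of the mitotic kinesins, the spindle genes and Kif12 in each of the 4 NL libraries as a percentage of the c-MYC mean FPKM (vertical axis, log scale), by gene (horizontal axis). NL 1 lies on top for every mitotic kinesin, and all values stay under 18 percent.

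Promoter sequence was looked at because the mitotic kinesins and spindle genes moved together. RefSeq windows of GRCm38.p6 from 250 bases before to 50 bases after the start site were matched by symbol for 37 of the 47 members. Kif1bp, Kif5a, Kif5b, Kif13b, Kif19a, Kif20a, Kif21b, Kifc2, Kifc3 and Tpx2 had none in the table used. The windows were searched on both strands for TTTGAA, the core of the cell cycle genes homology region (CHR) to which the DREAM and MuvB complexes bind, and for CCAAT, which NF-Y binds. CACGTG, the E-box of MYC and MAX, and GTAAACA, a forkhead motif, were searched as well, and no match of 1 motif overlapped a match of another. The following stretches run from 80 bases before the start site to 20 bases after it, on the strand of the gene. Capitals mark TTTGAA or its complement TTCAAA and CCAAT or its complement ATTGG. The first 5 are mitotic kinesins, the next 3 spindle genes and the last 2 transport kinesins, of which Kif1c fell and Kif3a rose in the comparisons described here. These stretches are examples. Every mitotic and spindle stretch shown holds both motifs, whereas the windows of 8 of 12 mitotic kinesins do. Kif15, a mitotic kinesin without CCAAT in its window, and Kif3b, a transport kinesin with it, are not shown.
Kif11, chr19:37376302-37376401, plus strand: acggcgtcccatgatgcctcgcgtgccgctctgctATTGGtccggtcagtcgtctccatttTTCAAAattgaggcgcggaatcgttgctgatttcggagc
Kif18b, chr11:102925105-102925204, minus strand: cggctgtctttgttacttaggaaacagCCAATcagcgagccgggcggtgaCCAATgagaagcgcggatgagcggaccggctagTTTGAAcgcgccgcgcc
Kif22, chr7:127042401-127042500, minus strand: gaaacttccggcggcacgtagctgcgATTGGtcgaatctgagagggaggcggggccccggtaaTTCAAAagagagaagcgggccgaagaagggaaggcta
Kif23, chr9:61946780-61946879, minus strand: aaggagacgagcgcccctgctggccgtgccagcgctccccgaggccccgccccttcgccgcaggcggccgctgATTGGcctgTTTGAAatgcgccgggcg
Kifc1, chr17:33890614-33890713, minus strand: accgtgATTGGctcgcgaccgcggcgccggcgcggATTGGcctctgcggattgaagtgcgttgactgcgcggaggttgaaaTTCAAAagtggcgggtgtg
Prc1, chr7:80294371-80294470, plus strand: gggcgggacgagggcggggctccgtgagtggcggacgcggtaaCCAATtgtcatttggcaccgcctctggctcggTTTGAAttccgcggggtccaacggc
Hmmr, chr11:40733418-40733517, minus strand: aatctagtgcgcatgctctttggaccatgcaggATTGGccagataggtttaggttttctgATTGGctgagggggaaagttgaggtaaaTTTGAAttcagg
Racgap1, chr15:99651637-99651736, minus strand: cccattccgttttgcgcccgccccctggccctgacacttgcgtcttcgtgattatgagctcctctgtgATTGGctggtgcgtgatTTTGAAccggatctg
Kif3a, chr11:53567289-53567388, plus strand: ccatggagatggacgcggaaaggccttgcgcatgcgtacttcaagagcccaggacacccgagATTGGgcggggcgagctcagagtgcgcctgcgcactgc
Kif1c, chr11:70700468-70700567, plus strand: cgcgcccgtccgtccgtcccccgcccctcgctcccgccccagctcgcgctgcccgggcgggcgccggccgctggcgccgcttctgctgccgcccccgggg

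TTTGAA was found in 11 of the 12 mitotic kinesins with a window, in 6 of 6 spindle genes and in 1 of 11 transport kinesins (Kif1a), where 17.9% of all 32851 windows hold it. Within 50 bases of the start site it was found in 9 of 12 mitotic kinesins, 6 of 6 spindle genes and 1 of 11 transport kinesins, against 4.94% of all windows. CCAAT was found in 8 of 12 mitotic kinesins, 5 of 6 spindle genes and 3 of 11 transport kinesins, against 37.4% of all windows. Windows with both motifs belonged to 8 of 12 mitotic kinesins, 5 of 6 spindle genes and 0 of 11 transport kinesins, against 6.95% of all windows. In Kif18b, Kif23, Hmmr and Racgap1, the CHR letters begin 2 to 8 bases after the start site. The E-box letters were found in 0 of the 12 mitotic kinesins, 1 of 6 spindle genes (Anln) and 1 of 11 transport kinesins (Kif1a), against 7.15% of all windows, and the forkhead letters only in Ect2 among these 3 classes, against 3.65%. A match is a string of letters and not a measured binding site, and these counts describe annotated windows without a test.

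**Figure D4:**
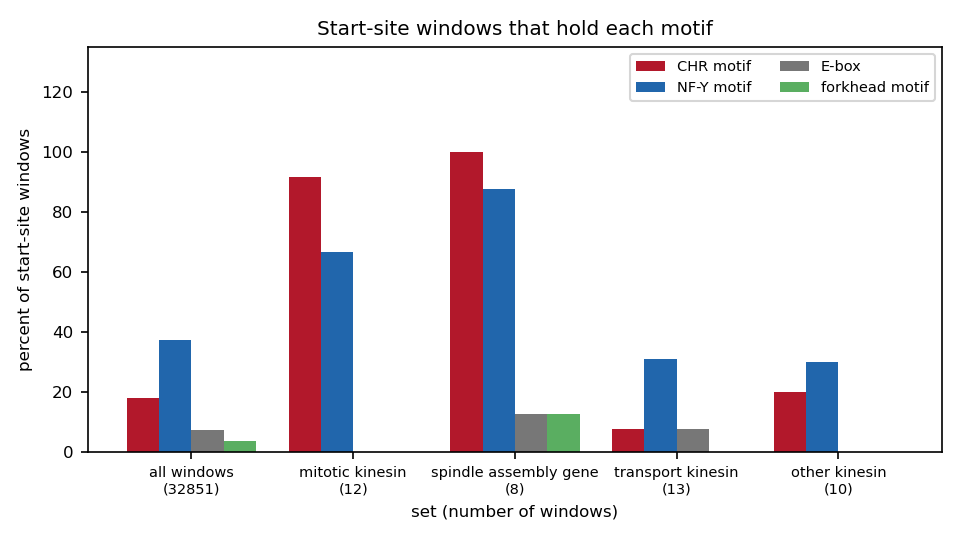
Percentage of start-site windows that hold each motif (vertical axis) in all windows and in each class (horizontal axis, with the number of windows, which exceeds the number of genes where a gene has several start sites). The CHR motif is in 91.7% of mitotic kinesin windows and 7.69% of transport kinesin windows, and the NF-Y motif in 66.7% and 30.8%.

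Addition of FOXO1AAA left mitotic kinesins and spindle genes at a high level. Of 13 mitotic kinesins, limma's treat called 0 higher and 0 lower between c-MYC/FOXO1AAA and c-MYC, and of 7 spindle genes also 0 and 0, where 15.9% of all genes tested were called higher and 12.7% lower, 28.7% in all. At an unadjusted p under 0.05 there were 0 in each class, and without a fold-change threshold there were again 0 in each class. These counts depend on the classes. Kif2a, which acts at the poles but was placed with the other kinesins, was called higher without a fold-change threshold (0.83 ± 0.14, limma adjusted p = 0.000382). With only the 2 tumor groups in the fit, 0 mitotic kinesins and 1 spindle gene had an unadjusted p under 0.05, and 0 were called. The median log2 fold change was -0.32 over the mitotic kinesins and -0.05 over the spindle genes, beside 0.0260 over all genes tested. These tests have wide errors, since SEs of 0.33 to 0.85 in these 20 genes carry the spread of the NL libraries, and a p that misses the threshold does not show equal levels. Kif11, Kif20a, Kif20b, Kif2c, Kif4 and Kifc1 lay lower in all 3 c-MYC/FOXO1AAA libraries without overlap (6 of 13, with 0 of 13 higher), as did Aurka and Hmmr (2 of 7), where 30.7% of all genes tested were lower without overlap and 32.7% higher. The 2 largest of these differences were -0.98 ± 0.85 for Hmmr (limma adjusted p = 0.806) and -0.80 ± 0.53 for Kif20b (0.782). The summed mitotic level was 296 ± 24.4 FPKM in c-MYC and 261 ± 23.6 FPKM in c-MYC/FOXO1AAA.

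Some transport kinesins were called in each direction with FOXO1AAA, the higher calls no more often than over all genes tested. Of the 14 tested, 2 were called higher and 5 lower, beside 15.9% and 12.7% of all genes tested, and their median log2 fold change was -0.14. Of all called genes 55.5% were higher, and 43.4% when genes averaging under 5 FPKM were left out. Kif3a, the subunit shared by the heterotrimeric kinesin-2 motors that drive intraflagellar transport (chromosome 11, 53567379 to 53601967, plus strand), held 4.44, 6.65, 6.57 and 5.74 FPKM in NL and 8.11, 6.14 and 7.72 FPKM in c-MYC. In c-MYC/FOXO1AAA it held 74.9, 77.5 and 77.5 FPKM, from 1326, 1664 and 1092 reads. The log2 fold change was 3.40 ± 0.16 (10.5-fold, limma adjusted p = 2.33e-07), and over the 22 alternatives it ran from 3.23 to 3.71. This was the largest rise among the 38 members tested, and the c-MYC/FOXO1AAA libraries lay close together.

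The partners of Kif3a in the motor did not rise to the same extent. Kif3b, its usual partner, held 2.83, 3.76 and 2.88 FPKM in c-MYC and 3.31, 3.67 and 3.495 FPKM in c-MYC/FOXO1AAA, with NL values of 3.52, 3.43, 2.71 and 2.31 FPKM, so that all 3 groups overlapped. Kifap3, the cargo-binding subunit, went from 1.35 ± 0.244 FPKM in NL to 4.12 ± 0.551 FPKM in c-MYC and 7.70 ± 0.375 FPKM in c-MYC/FOXO1AAA. Kifap3 was called higher from NL to c-MYC (log2 fold change 1.62 ± 0.19, limma adjusted p = 0.000369) but not from c-MYC to c-MYC/FOXO1AAA (0.91 ± 0.20, 0.188). The ratio of Kif3a to Kif3b FPKM was 2.02 ± 0.564 in NL, 2.39 ± 0.668 in c-MYC and 22.0 ± 0.753 in c-MYC/FOXO1AAA. On the longest annotated lengths, the ratio was 0.462, 0.546 and 5.01. Kif3c, the alternative partner found mainly in neurons, held 0.177, 0.0331, 0.229 and 0.0831 FPKM in NL, 0.403, 0.299 and 0.314 FPKM in c-MYC, and 1.75, 1.83 and 1.16 FPKM in c-MYC/FOXO1AAA. The tumor groups did not overlap for Kif3c. Its call was narrow (2.20 ± 0.62, limma adjusted p = 0.0454), and it was kept under 11 of the 22 alternatives and lost under 10, with adjusted p values up to 0.209, while a filter at a mean of 5 FPKM left the gene untested. It was lost without NL 4, any 1 of the c-MYC libraries or any 1 of the c-MYC/FOXO1AAA libraries, and with the replicate number as a block (0.0672).

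Neighbors of Kif3a were examined because they share its place on chromosome 11. Within 100 kb, 8 other protein-coding genes are annotated, of which Shroom1, Sowaha, Il4 and Rad50 are in the table. Il4, which lies just past the end of Kif3a on the other strand (53602982 to 53618669), went from 0.995 ± 0.150 FPKM to 9.0 ± 0.993 FPKM between c-MYC and c-MYC/FOXO1AAA (log2 fold change 3.18 ± 0.35, limma adjusted p = 8.57e-05). Sowaha went from 0.125 ± 0.0378 FPKM to 2.49 ± 0.286 FPKM (4.36 ± 0.37, limma adjusted p = 8.64e-06). Shroom1 fell (-2.58 ± 0.29, limma adjusted p = 0.00015), and Rad50 was not called (0.20 ± 0.16, limma adjusted p = 1). As annotated, none of these neighbors overlaps Kif3a, which ends at 53601967. Whether reads were counted by strand is not stated, and reads that run past an annotated end were not examined.

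Among the conventional kinesin heavy chains, Kif5c, a form best known from neurons, was too low for the filter and was not tested. It held 0, 0, 2 and 0 reads in NL, 8, 3 and 1 reads in c-MYC, and 170, 258 and 88 reads in c-MYC/FOXO1AAA, which is 0.0488 ± 0.0287 FPKM and 0.991 ± 0.304 FPKM in the tumor groups. Against 3 reads per library in NL, its level in c-MYC/FOXO1AAA was at least 21.7-fold higher, a bound for counting error only. Kif5b stood at 14.98 ± 1.70 FPKM and 16.9 ± 1.03 FPKM, with overlap, and Kif5a at 0.0727 ± 0.0412 FPKM and 0.171 ± 0.0740 FPKM. Kif13a, of the kinesin-3 family, was higher in every c-MYC/FOXO1AAA library (9.58, 10.3 and 9.46 FPKM) than in every c-MYC library (5.50, 5.78 and 4.07 FPKM) but missed the threshold (log2 fold change 0.95 ± 0.16, limma adjusted p = 0.0656).

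The 5 transport kinesins called lower with FOXO1AAA lay without overlap below c-MYC. Kifc2, a minus-end motor of dendrites, held 2.76, 1.798, 1.71 and 2.17 FPKM in NL, 2.34, 1.27 and 1.81 FPKM in c-MYC, and 0.304, 0.247 and 0.197 FPKM in c-MYC/FOXO1AAA (log2 fold change -2.84 ± 0.31, limma adjusted p = 0.000113). Kif21a held 8.60, 10.5, 8.76 and 8.15 FPKM in NL, 10.3, 15.6 and 10.9 FPKM in c-MYC, and 1.96, 1.40 and 2.99 FPKM in c-MYC/FOXO1AAA (-2.58 ± 0.26, limma adjusted p = 6.54e-05). Both were thus below normal liver as well. Kifc3 returned to 3.69, 4.70 and 5.67 FPKM from its raised level in c-MYC (-1.34 ± 0.19, limma adjusted p = 0.0053). Kif13b held 10.04, 11.61, 8.685 and 9.646 FPKM in NL, 5.70, 9.37 and 5.57 FPKM in c-MYC, and 3.23, 2.91 and 2.47 FPKM in c-MYC/FOXO1AAA (-1.23 ± 0.21, limma adjusted p = 0.0224). It lost this call without c-MYC 2 (0.0735) or c-MYC/FOXO1AAA 3 (0.0715). Kif13b was also called lower in c-MYC/FOXO1AAA than in NL (-1.8 ± 0.2, limma adjusted p = 0.000124). Kif16b held 4.049, 3.755, 3.083 and 4.214 FPKM in NL, 6.46, 8.65 and 6.995 FPKM in c-MYC, and 3.79, 3.63 and 3.44 FPKM in c-MYC/FOXO1AAA, which overlapped NL. Kif16b (-1.01 ± 0.17 between the tumor groups, limma adjusted p = 0.0467) kept the call under only 7 of 22 alternatives. It lost it without NL 1, NL 2, NL 4, c-MYC 2, c-MYC 3 or any 1 of the c-MYC/FOXO1AAA libraries, with adjusted p values up to 0.16. Kif17, a motor of intraflagellar transport, was too low for the test and held 19, 4 and 14 reads in c-MYC beside 1, 1 and 0 in c-MYC/FOXO1AAA, at least 5.36-fold higher in c-MYC against 3 reads per library. The transport kinesins without Kif3a summed to 131 ± 4.06 FPKM in NL, 129 ± 20.1 FPKM in c-MYC and 96.0 ± 8.37 FPKM in c-MYC/FOXO1AAA, and with Kif3a to 137, 136 and 173 FPKM. Both sums use the lengths and library sizes of the authors. At its longest annotated length, Kif3a held 1.33, 1.67 and 17.5 FPKM in the 3 groups in place of 5.85, 7.32 and 76.65 FPKM. The rise of the sum with Kif3a thus depends on its length of 720 of 3161 bases.

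**Figure D5:**
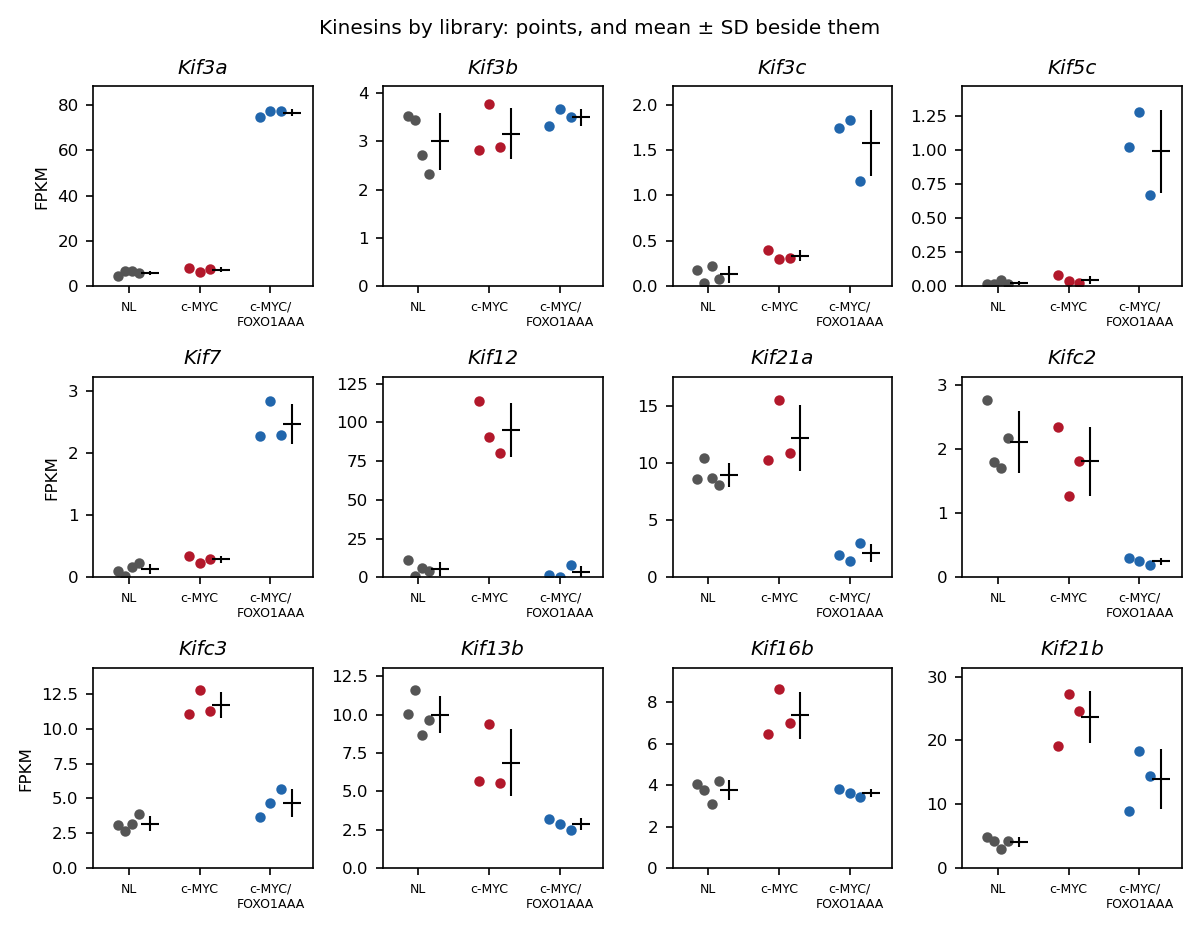
FPKM (vertical axes, linear from 0) of 12 kinesins in NL (gray), c-MYC (red) and c-MYC/FOXO1AAA (blue) libraries, with mean ± SD beside the points. Kif3a, Kif3c, Kif5c and Kif7 are high only in the 3 c-MYC/FOXO1AAA libraries, Kif3b is similar in all groups, and Kif12 is high only in c-MYC.

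Among the other kinesins, Kif7 and Kif12 moved in opposite directions with FOXO1AAA. Kif7, the kinesin of the ciliary tip that regulates Hedgehog signaling, held 0.106, 0.0262, 0.162 and 0.223 FPKM in NL, 0.339, 0.237 and 0.291 FPKM in c-MYC, and 2.28, 2.85 and 2.30 FPKM in c-MYC/FOXO1AAA (log2 fold change 3.11 ± 0.65, limma adjusted p = 0.00683). Kif12 fell from 114, 90.7 and 80.2 FPKM in c-MYC to 1.22, 0.421 and 8.05 FPKM in c-MYC/FOXO1AAA (-5.87 ± 1.09, limma adjusted p = 0.00213). The groups did not overlap, but the c-MYC/FOXO1AAA libraries spread widely, and their level did not pass the test against NL (-1.24 ± 1.02, limma adjusted p = 0.457). Kif2a stood at 10.8 ± 1.22 FPKM and 19.2 ± 1.24 FPKM without overlap and missed the threshold (0.83 ± 0.14, limma adjusted p = 0.149). Kif9, a ciliary kinesin too low to be tested, held 0.370, 0.315 and 0.272 FPKM in c-MYC and 0.671, 0.653 and 0.692 FPKM in c-MYC/FOXO1AAA. Kif24 held 0.956, 1.59 and 0.956 FPKM in c-MYC and 0.892, 0.865 and 0.805 FPKM in c-MYC/FOXO1AAA. Neither of these 2 genes overlapped between the tumor groups, where 32.7% of all genes tested were higher without overlap and 30.7% lower. In a fit without the filter, neither Kif9 (1.09 ± 0.40, limma adjusted p = 0.306) nor Kif24 (-0.41 ± 0.61) was called. Kif5c (4.46 ± 0.54, limma adjusted p = 0.000103) and Kif26b (2.68 ± 0.55, 0.0071) were called higher in that fit, and Kif17 (-2.29 ± 0.48, 0.0101) lower. Of all 16697 genes, 2872 were called higher and 1942 lower there. Kif19a, Kif26a and Kif27 did overlap, and Kif26b held 1, 0 and 1 reads in c-MYC against 10, 64 and 13 in c-MYC/FOXO1AAA.

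Compared with NL, the c-MYC/FOXO1AAA tumors had 13 of 13 mitotic kinesins and 7 of 7 spindle genes called higher, where 31.2% of all genes tested were called higher and 57.8% in either direction. The libraries did not overlap in any of these 20 genes, and 44.1% of all genes tested were higher without overlap and 36% lower. Their median log2 fold changes were 4.25 and 5.06, beside 0.2125 over all genes tested. This comparison shares its libraries with the other comparisons and is no separate evidence. Of the transport kinesins, 4 were called higher (Kif3a, Kif3c, Kif21b and Kif5b) and 5 lower (Kif1b, Kif1c, Kif13b, Kif21a and Kifc2), beside 31.2% and 26.6% of all genes tested. With the same FPKM total per library, the median of all genes stood at 1.311 and the share of higher among called genes at 79.5% in place of 54%.

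Other genes of the microtubule system were taken from lists, whose counts stand beside 24.5% of all genes tested called higher and 23.6% lower in c-MYC versus NL, and 15.9% and 12.7% in c-MYC/FOXO1AAA versus c-MYC. Of 23 other spindle and midzone genes, 20 were called higher in c-MYC than in NL, with Aurkb (log2 fold change 5.44 ± 0.71), the kinase of the chromosomal passenger complex, and Plk1 (5.27 ± 0.68), the polo kinase, at the top. The median of the list was 4.41. Clasp1, Clasp2 and Numa1, which also serve interphase cells, were not called. Of 16 augmin and gamma-tubulin complex genes, which nucleate microtubules, 9 were called higher, led by Haus8 (3.03 ± 0.32) and Haus1 (2.12 ± 0.16), with a median of 1.07. With FOXO1AAA, limma's treat called 0 of these 23 and 0 of these 16 genes. At an unadjusted p under 0.05 there were 0 and 1, and without a fold-change threshold 2 and 7 were called, where 54.8% of all genes tested were.

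Tubulins split by isotype. From NL to c-MYC, 9 of 10 tested tubulins were called higher, led by Tuba8 (3.81 ± 0.62) and Tubb2b (3.67 ± 0.47), with a median of 3.04. From c-MYC to c-MYC/FOXO1AAA, 3 were called higher, led by the neuronal isotypes Tubb2b (2.89 ± 0.51) and Tuba1a (2.27 ± 0.24), and 2 lower, Tuba8 (-3.12 ± 0.66) and Tuba4a (-1.40 ± 0.15). Of 13 kinesin light chains and cargo adaptors, 5 were called higher in c-MYC, led by Klc3 (3.70 ± 0.54) and Rab11fip5 (3.31 ± 0.27), and 2 lower, Klc4 (-1.94 ± 0.13) and Trak1 (-0.88 ± 0.13). With FOXO1AAA, 1 of the 13 was called, Klc1 (1.27 ± 0.14), the main light chain of conventional kinesin. Of 19 dynein and dynactin genes, which form the minus-end motor, 5 were called higher and 3 lower in c-MYC, led by Dynll1 (2.88 ± 0.25) and Dynlt3 (-1.81 ± 0.14). With FOXO1AAA, 3 were called higher, led by the adaptor Bicd1 (3.90 ± 0.43) and Dync1li2 (1.64 ± 0.13), and 1 lower, Dynll2 (-1.27 ± 0.12).

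Markers of other cell types moved with the groups. The summed level of 5 skeletal muscle genes was 2.10 to 3.14 FPKM in NL, 1.38 to 6.12 FPKM in c-MYC and 181 to 228 FPKM in c-MYC/FOXO1AAA, and 3 of the 4 tested were called higher with FOXO1AAA. Myog was at the level of 0 reads in every NL and c-MYC library. The summed level of 5 stellate cell and fibroblast genes was 75.0 to 95.9, 6.5 to 22.7 and 237 to 346 FPKM in the 3 groups. From NL to c-MYC, 1 of these 5 was called higher and 3 lower. From c-MYC to c-MYC/FOXO1AAA, 3 were called higher and 0 lower, beside 15.9% and 12.7% of all genes tested. Against NL, 3 were called higher and 1 lower in c-MYC/FOXO1AAA, so the sum does not hold for each gene. The sum of 4 lymphocyte genes was 2.61 to 4.83, 3.04 to 4.26 and 8.86 to 12.8 FPKM. Of the 3 lymphocyte genes tested, Cd79a, a B cell gene, was called higher with FOXO1AAA (5.42 ± 0.67), whereas Nkg7 (-1.75 ± 0.46) and Ptprc (-0.92 ± 0.31) were not called. The muscle and stellate cell sums and Cd79a were thus high in the group in which Kif3a, Kif3c, Kif5c and Kif7 were high, and their part in those changes was not tested. Of 6 neuron genes only Syt1 was in the table, at 4.56 to 5.50, 0.025 and 0.632 to 1.29 FPKM. Of 5 genes of ciliated cells 3 were in the table, with a sum of 0.549 to 2.11, 7.65 to 15.4 and 1.32 to 1.82 FPKM. This sum was highest in c-MYC, as was Kif12. Only 1 of these genes reached the test. It was called higher from NL to c-MYC (log2 fold change 4.36) and lower from c-MYC to c-MYC/FOXO1AAA (-6.05). The sum does not show that each gene moved this way, and the part of these genes in the change of Kif12 was not tested. Cholangiocyte genes summed to 20.1 to 27.9, 17.6 to 32.4 and 30.2 to 38.1 FPKM, but the genes within the sum went opposite ways. From NL to c-MYC, Epcam (3.71 ± 0.37) and Krt7 (3.69 ± 0.72) were called higher and Spp1 (-3.73 ± 0.26) lower, and Krt19 was not called (-2.09 ± 0.71). From c-MYC to c-MYC/FOXO1AAA, Spp1 (4.11 ± 0.27) and Krt19 (4.03 ± 0.76) were called higher and Epcam (-3.0 ± 0.40) lower, and Krt7 was not called (-2.26 ± 0.77). Epcam was thus called in the same directions as Kif12, and its part in the change of Kif12 was not tested. Macrophage genes summed to 199 to 319, 213 to 240 and 133 to 195 FPKM, endothelial genes to 44.9 to 60.1, 9.73 to 16.8 and 25.6 to 40.6 FPKM, and erythroid genes to 1030 to 2041, 123 to 220 and 206 to 493 FPKM. With FOXO1AAA, these sums did not hold for every gene within them. Of 5 macrophage genes 1 was called higher and 0 lower, with a median log2 fold change of -0.49. Of 5 endothelial genes 1 was called higher and 0 lower, with a median of -0.71. Of 4 erythroid genes 1 was called higher and 1 lower, beside 15.9% and 12.7% of all genes tested.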

How the data were processed

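RNA sequencing of 4 normal mouse livers, 3 c-MYC tumors and 3 c-MYC/FOXO1AAA tumors was examined as 1 deposited table. The authors had counted reads by Ensembl gene, added symbols with org.Mm.eg.db and deposited log2 FPKM. The submitters' processing notes name FastQC 0.11.7 and GRCm38, and the aligner, the counter and the release of the gene models are not given in the sources used here. Of 17069 entries, 372 without symbol and values were left out. Samples were grouped by title. Reads were recovered as whole numbers, with a tolerance of 0.03 reads, for 100.0% of genes at lengths from 150 to 30000 bases, and the prior count of 2 understates changes of low genes. At 134 genes several lengths were possible.

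The deposited unit is no count, so a linear model of log2 FPKM over all 10 libraries was fitted with limma 3.58.1 (R 4.3.3, statmod 1.5.0), with treat at 1.5-fold, 2-sided, trend and robust estimation and Benjamini-Hochberg adjustment over 14017 genes. It was tested on simulated data. Alternatives were other pseudocounts, filters, scalings and thresholds, estimation without trend, a fit of only the groups compared, a replicate block and each library left out. Members, classes and gene lists were chosen with earlier results of these data known. Every member is accounted for. Values in every library are given for mitotic kinesins, spindle genes and members called with FOXO1AAA. For the largest called changes between c-MYC and NL, values are given for every library of the groups compared. Of the lists, up to 2 called genes in each direction are named, and others named were chosen after their values were seen. Bounds use 3 reads and cover counting error only. Gene positions are from GENCODE M21 (GRCm38).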

Additional observations from a re-analysis of the deposited data

Results flagged for a closer look

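In the 4 NL libraries, a value was picked out where its gap to the nearest other library took more of the range on the log2 scale than Dixon's 95% critical value for 4 samples, which chance does in about 1 in 20 groups. This held for 4 of the 47 members, all of them near 0 reads in NL. Kif27 stood at 0.129 FPKM in NL 1 and at 0.0231 FPKM in the other 3 libraries. Kif17 stood at 0.0673 FPKM in NL 1 and at 0.0381 FPKM in the others. Kif1a stood at 0.722 FPKM in NL 4, from 3 reads, and at 0.189 FPKM in the others. Kif5c stood at 0.0471 FPKM in NL 3 and at 0.0173 FPKM in the others. In each case the other 3 libraries held 0 reads and the same value. The gap then took the whole range whatever its size, so the rate of 1 in 20 does not apply to these 4. Without NL 4, the only NL library with reads of Kif1a, that gene was called higher in c-MYC than in NL (log2 fold change 2.09, limma adjusted p = 0.0119). This call rests on 7, 5 and 10 reads in c-MYC against 0 in NL.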

How the results depend on the processing

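Counts of called spindle genes were the same under all 22 alternatives in all 3 comparisons, and those of mitotic kinesins under 21. With a mean FPKM of at least 5, 9 mitotic kinesins were tested, and 9 were called higher in both tumor groups than in NL. Counts of transport kinesins moved. For c-MYC versus NL (3 higher and 2 lower), the same FPKM total gave 9 higher and 0 lower, no fold-change threshold 6 and 4, quantile normalization 1 lower and a threshold of 2-fold 0 lower, and leaving out each library gave 2 to 4 higher and 1 to 2 lower. For c-MYC/FOXO1AAA versus c-MYC (2 higher and 5 lower), a mean FPKM of at least 5 gave 1 higher and 3 lower, a threshold of 2-fold 1 and 2, and quantile normalization and the replicate block 1 higher each. A pseudocount of 1, the same FPKM total and the fit of only the groups compared gave 3 lower each, and leaving out each library gave 1 to 2 higher and 3 to 5 lower, with 3 lower without c-MYC 2 or c-MYC/FOXO1AAA 3. For c-MYC/FOXO1AAA versus NL (4 higher and 5 lower), the same FPKM total gave 9 and 1, no fold-change threshold 7 higher, and leaving out each library 4 to 5 of each. The median log2 fold change of mitotic minus transport kinesins was 4.20 for c-MYC versus NL (3.02 with a pseudocount of 1, 3.82 to 4.77 with each library left out) and 3.90 for c-MYC/FOXO1AAA versus NL (2.69 and 3.6 to 4.31). For c-MYC/FOXO1AAA versus c-MYC it was -0.18, but -0.36 without a filter, -0.02 with a mean FPKM of at least 5, 0.11 with quantile normalization, and -0.25 to 0.09 with each library left out, the 0.09 without c-MYC/FOXO1AAA 3, so its sign was not stable. Kif14 in that comparison turned from 0.40 to -0.09 with quantile normalization. Of 62 fold changes of members examined, 43 kept direction and side of the threshold under all alternatives that tested them. The cause was not tested. Replicate numbers were shared across groups, and deviations of the 9 same-numbered pairs correlated at -0.04 to 0.027 over the genes tested. A correlation over all these genes cannot exclude a shared batch that touches few of them. With the replicate block, Kif16b and Kif3c lost their calls with FOXO1AAA. Low reads in NL limit the fold changes of the mitotic kinesins.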
